A study of Bos taurus with 2 samples.

Results

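EIF1AY is the Y-linked gene for the translation initiation factor eIF1A, and it was examined here for CpG methylation in cattle lung DNA. The gene lies on chromosome Y at chrY:6878364-6894899 of the ARS-UCD2.0 assembly, and the annotation of the study places it on the plus strand, so that its start is at 6878364 and its far end at 6894899. All CpGs of the gene and of 5 kb on each side were taken, which gave 246 CpGs of the 975164 in the PacBio data. EIF1AY was 1 of 235 protein-coding genes in the gene table of the Y. It was selected on its measured values at the gene ends, namely a mean PacBio level over 1 kb on both sides of both ends that ranked 3 among 234 genes with at least 5 CpGs there. That mean was 82.5% over 71 CpGs, beside 82.8% for LOC132344576 just ahead of it and 82.3% for LOC132344611 just behind it. The ONT mean of the same CpGs was 72.8%. The levels at the gene ends are therefore given as a description, without a test.

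The DNA came from lung, and the labels give no treatment, age, strain or genotype of the animal. The assembled Y-chromosome of the study is the Wagyu haplotype of a fetus of a Wagyu by Charolais cross. Methylation at CpGs was read by PacBio HiFi sequencing and by nanopore sequencing of Oxford Nanopore Technologies (ONT), in 1 library each. With 1 library on each side no test across samples was possible, and the intervals below cover counting error within a library only. Over the chromosome the PacBio data had a median depth of 40 reads per CpG. The ONT data held 1950714 rows, 1 for each strand of a CpG, and their depth is unknown because they are percentages without read counts. No read of RNA belongs to these data, so the levels below say nothing of expression.

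The factor eIF1A binds the small ribosomal subunit and helps it to scan a messenger RNA for the start codon. Mammals carry a copy of its gene on the X chromosome, EIF1AX, and many also keep a Y copy, a remnant of the time when both chromosomes were a pair of autosomes. Genes of this kind form the X-degenerate part of the male-specific region (MSY), next to the pseudoautosomal region (PAR). Broadly used genes of mammals often start in a CpG island, a short stretch rich in CpGs that is usually free of methylation, whereas CpGs elsewhere in the genome are mostly methylated.

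The locus as a whole was highly methylated. The 246 CpGs had a PacBio level of 80.7% ± 18.8 (SD over CpGs), with a median of 89.0%, a lowest value of 6.20% and a highest of 96.1%. On ONT the mean was 69.6% ± 21.5, the median 76.1%, and the range went from 5.34% to 99.1%. A PacBio level of at least 80% was found at 173 CpGs, and 35.7% of all CpGs of the MSY outside the centromere reached that level. At the other end of the scale 3 CpGs had at most 20% on PacBio, where the share over the MSY was 10.5%. On ONT 101 CpGs had at least 80%, beside 12.6% of the CpGs over the MSY, and 12 had at most 20%, beside 12.4%. No 3 neighbouring CpGs were at or under 20% on PacBio. The stretch from 5 kb before EIF1AY to the first TSPY copy, which contains the locus, averaged 71.2% by PacBio and 62.7% by ONT, over 30535 CpGs.

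**Figure D1:**
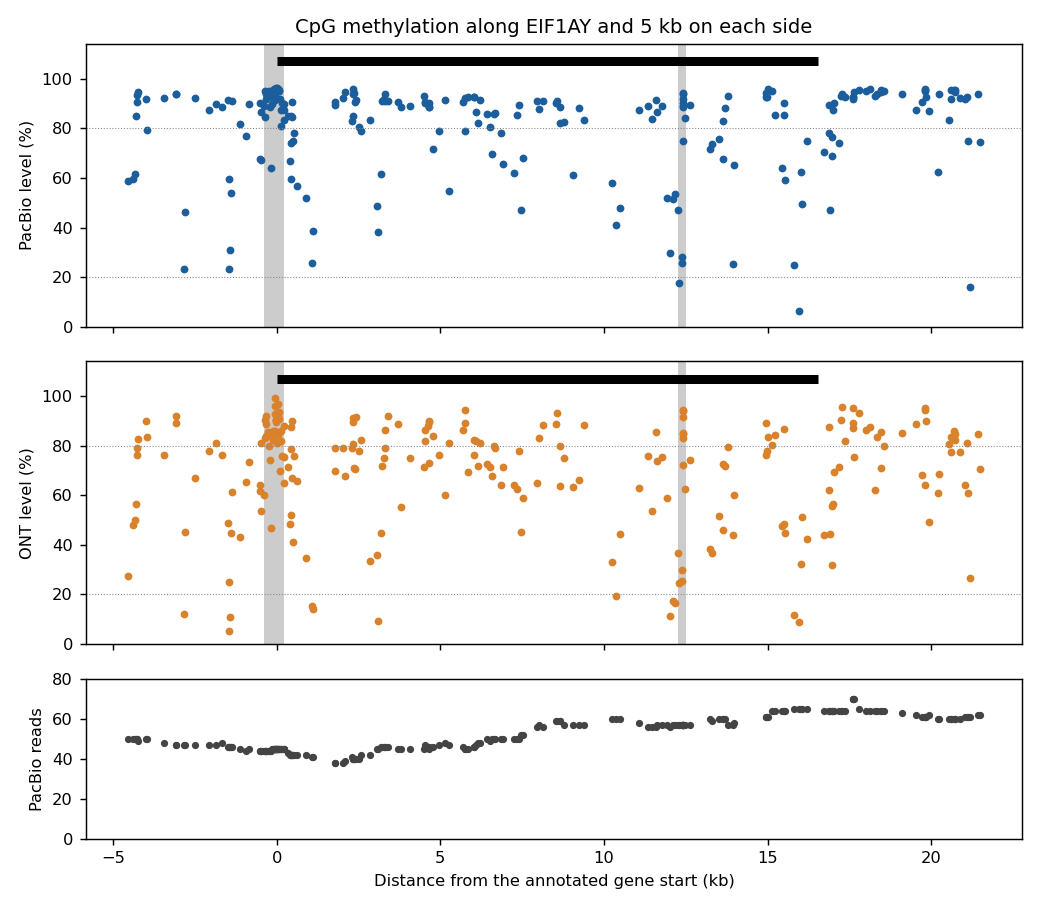
Methylation level of each CpG of EIF1AY and 5 kb on each side, on PacBio (top, percent) and ONT (middle, mean of the strand rows, percent), with the PacBio reads per CpG (bottom), against distance from the gene start in kb. The black bar is the gene, grey bands are the CpG islands, and dotted lines mark 20% and 80%. The dense band at the start averages 91.7% by PacBio and 84.3% by ONT, while scattered low CpGs lie in the body and near the far end.

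The start of EIF1AY sat in a methylated CpG island. An island was taken as a run of windows of 200 bp that each held at least 10 CpGs, since only positions and no sequence were at hand. By this rule an island of 616 bp lay at chrY:6877985-6878600, from 379 bp before the start to 236 bp inside the gene, and held 37 CpGs. It covered 2.32% of the locus and held 15.0% of its CpGs, a density of 60.1 CpGs per kb against 9.27 over the locus. Its PacBio level was 91.7% ± 6.08 (SD over 37 CpGs), and its ONT level was 84.3% ± 10.6. Of 1655 read observations over these CpGs, 1539 were estimated as modified, 93.0% of them, and the Wilson 95% interval ran from 91.7% to 94.1%. The lowest CpG of the island, 6878177, had 64.1% on PacBio and 46.9% on ONT, and it was the lowest on both platforms.

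The highest levels lay right at the annotated start. A run of 21 neighbouring CpGs from 6878206 to 6878451, that is at -158 to 87 bp relative to the start, had at least 90% each on PacBio, and at most 96.1%. On ONT the same CpGs ranged from 69.7% to 99.1%, with a median of 90.3%. The CpG at 6878366, 2 bp inside the gene, had 44 of 45 PacBio reads estimated as modified, a share of 97.8% with a Wilson interval from 88.4% to 99.6%. Its ONT rows stood at 94.7% and 91.8%. In steps of 100 bp the PacBio mean was 94.3% just before the start and 95.2% just after it, over 9 CpGs each.

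Further from the start some CpGs were lower on both sides. The 7 CpGs at 400 to 500 bp inside the gene had a PacBio mean of 76.5% and an ONT mean of 66.3%. The CpG at 6879249, 885 bp inside, had 51.9% and 34.7%. The next CpGs, at 6879438 and 6879469, had 25.6% and 38.8% on PacBio, and their 4 ONT rows lay between 9.62% and 19.1%. On the outer side the CpGs at 6877867 and 6877891 had 67.7% and 67.3%. Apart from 6878177, these lower CpGs lay outside the island.

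**Figure D2:**
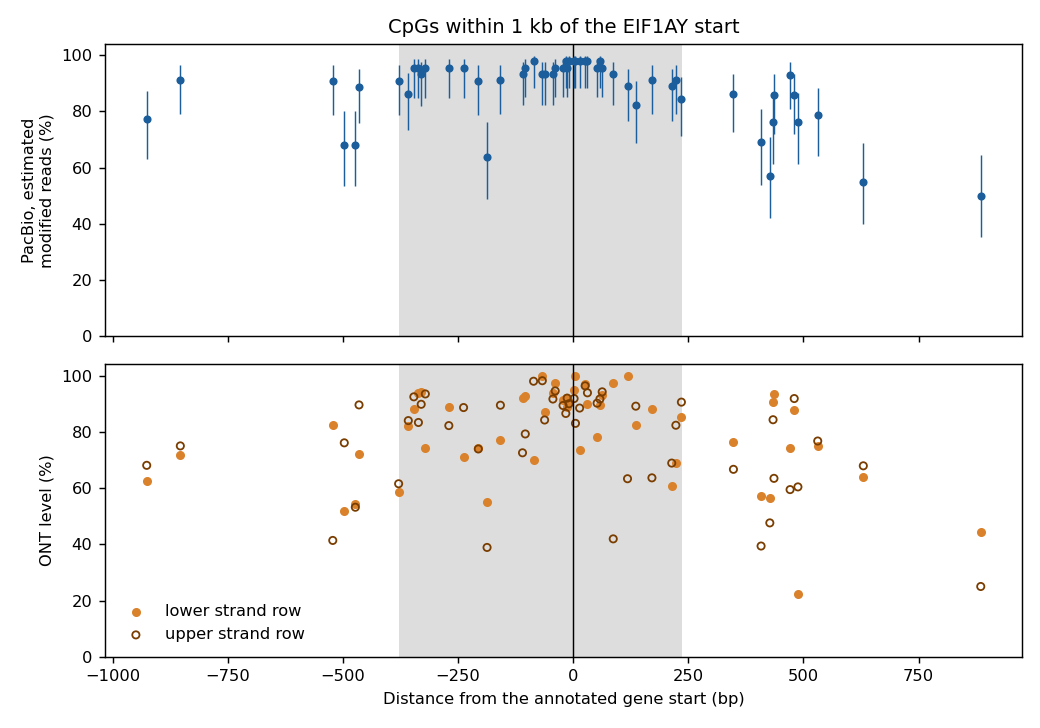
CpGs within 1 kb of the EIF1AY start, against distance in bp from the start (black line), with the island in grey. Top, percent of PacBio reads estimated as modified with Wilson 95% intervals. Bottom, the lower and the upper ONT strand row of each CpG in percent. The CpGs next to the start lie above 90% on PacBio, and lower values appear towards the edges.

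Over the full window of 1 kb on both sides, the 54 CpGs of the start averaged 86.6% ± 11.3 on PacBio, and their ONT mean was 78.3% ± 15.1. The outer side stood at 89.1% and 80.5% over 28 CpGs, and the inner side at 84.0% and 76.0% over 26 CpGs. No CpG of this window was at or under 20% on either platform, and the lowest were 51.9% on PacBio and 34.7% on ONT. Without the island the remaining 17 CpGs had 75.6% on PacBio and 65.4% on ONT.

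Within 1 kb the far end was lower than the start, but with windows of 2 kb the levels were close on PacBio, at 82.6% for the start and 80.8% for the far end, and on ONT they were 71.7% and 67.7%. The data go against a description of EIF1AY as a gene with methylated ends in its last 1 kb, where the CpGs were of low to intermediate level. Of the 71 CpGs at both ends 54, or 76.1%, belong to the start. The 17 CpGs within 1 kb of the far end averaged 69.4% ± 25.0 on PacBio, and on ONT 55.2% ± 25.8. Among 200 MSY genes of known strand with at least 5 CpGs at the far end, EIF1AY ranked 73 on PacBio and 79 on ONT. The median of the others was 61.8% and 50.1%. The last 1 kb inside the gene held only 5 CpGs, with PacBio levels of 24.8%, 6.20%, 62.5%, 49.3% and 74.9% from 6894163 to 6894573. Their mean was 43.5% on PacBio and 29.4% on ONT. The CpG at 6894311, with 4 of 65 reads estimated as modified, was the lowest of the locus on PacBio and had 8.51% and 9.62% on the ONT rows. Beyond the end the level rose to 80.2% on PacBio and 65.9% on ONT over 12 CpGs. No island was found there.

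The gene body, from 2 kb inside the start to 2 kb inside the far end, had 78.5% ± 18.5 on PacBio and 68.3% ± 21.0 on ONT over 101 CpGs. The body was not used to choose the gene. Among 74 MSY genes with at least 5 CpGs in the body, EIF1AY ranked 10 on PacBio and 13 on ONT, and the median of the other 73 was 61.9% and 47.3%. The part up to the midpoint of the gene, with 58 CpGs, stood at 83.5% on PacBio and 74.0% on ONT. The part after the midpoint, with 43 CpGs, stood at 71.8% and 60.6%. The SD over CpGs on PacBio was 12.9 before and 22.6 after the midpoint.

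A second island of 242 bp lay inside the body at chrY:6890611-6890852, with 12 CpGs, whose mean was 68.8% by PacBio and 65.3% by ONT. The levels changed in a step within it. The first 4 CpGs, from 6890611 to 6890738, had 47.0%, 17.8%, 25.9% and 28.0% on PacBio. The next 5 CpGs, from 6890769 to 6890777 and 2 bp apart from one to the next, had 88.4%, 89.2%, 75.0%, 90.2% and 94.4%. On ONT the CpG at 6890738 had a mean of 29.8% and that at 6890769, 31 bp further on, had 84.6%. The PacBio read estimates were 15 of 57 at the former, with a Wilson interval from 16.6% to 39.0%, and 51 of 57 at the latter, with an interval from 78.9% to 95.1%. This pair was chosen after the values were seen and is given as a description. Just before the island, the 3 CpGs from 6890367 to 6890531 were the only run of 3 or more at or under 20% on ONT, with a mean of 15.0%, while their PacBio mean was 44.9%.

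The flanks differed little from the body in PacBio level before the gene and were higher after it. The 5 kb before the gene had 82.0% ± 18.8 on PacBio and 69.8% ± 23.3 on ONT over 53 CpGs, but 28 of these belong to the outer side of the start. Without them the remaining 25 CpGs had 74.1% and 58.0%. Low CpGs there were 6875529 with 23.1% on PacBio and 12.2% on ONT, and 6876917 with 23.4% and 5.34%. The 5 kb after the gene had 86.8% ± 14.8 and 74.7% ± 16.7 over 47 CpGs, and the part over 1 kb from the end had 89.0% and 77.7% over 35 CpGs. A low CpG lay there as well, 6899546 with 16% on PacBio and 26.8% on ONT, the only one of the flanks at or under 20% on PacBio. In windows of 1 kb along the locus the PacBio mean ran from 48.9%, over 3 CpGs at 10 kb from the start, to 94.6%, over 6 CpGs at 18 kb. The ONT mean was also lowest in the former window, at 32.3%.

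The start was next set beside the starts of the other protein-coding genes between EIF1AY and the first TSPY copy, 12 in number, most of them X-degenerate. Since EIF1AY was selected on its level there, the comparison is a description. Their strand and the names in parentheses are those of the study. Of the 12 genes, 8 had an island within 1 kb of the start, and in 7 of these the island was at or under 20% on PacBio. Over the whole MSY, 122 protein-coding genes of known strand had such an island and 6.56% of them were at or under 20%. Where several islands lay near a start, the nearest was taken. The 7 islands ranged from 3.01% to 13.0% on PacBio, against 91.7% at EIF1AY.

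The nearest of them was LOC100335202 (OFD1Y), whose gene product family works at the base of cilia. Its 44 CpGs averaged 3.83% by PacBio and 2.24% by ONT. LOC132344466 (KDM6A), which carries the name of a histone demethylase, had 3.01% and 1.37% over 76 CpGs. ZRSR2Y, named for a splicing factor, had 3.24% and 3.05% over 36 CpGs. Like the EIF1AY island, each of the latter pair contained the annotated start.

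DDX3Y, which encodes an RNA helicase, had the highest of the 7, with 13.0% and 8.11% over 57 CpGs. LOC132344468 (EIF2S3), named for a subunit of another translation initiation factor, had 3.09% and 0.985% over 28 CpGs in the island at its start. The zinc finger gene ZFY had 3.29% and 1.48% over 119 CpGs, in an island 382 bp from the start. LOC132342139 (SHROOM2) had 3.64% and 1.57% over 223 CpGs. All 7 thus lay far below EIF1AY on both platforms.

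The remaining island was methylated. It belonged to LOC132344467 (RPL23A), which bears the name of a ribosomal protein and lies within LOC132342139, and it had 93.4% on PacBio and 86.5% on ONT over 12 CpGs. Of the 4 genes without an island at the start, USP9Y, which encodes a deubiquitinase, had 68.3% on PacBio and 65.2% on ONT over 8 CpGs within 1 kb of its start. LOC100126816 (HSFY2) had 21.1% and 19.5% over 7 CpGs. LOC132344423 (AMELY), named for a tooth enamel protein and the nearest gene to EIF1AY among the 12, had 80.8% and 65.7% over 4 CpGs. LOC101902149 had 40.4% and 34.0% over 3 CpGs.

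Within 1 kb of the start the median of the 12 genes, among them the pair with 4 and 3 CpGs, was 18.3% on PacBio and 16.4% on ONT, so that EIF1AY lay 68.3 and 61.9 percentage points above it. The far ends were less far apart. EIF1AY had 69.4% there, and the 12 genes ranged from 62.7% for LOC101902149 to 93.6% for LOC132344468 on PacBio. In the body EIF1AY was likewise inside the range of the genes with at least 5 CpGs there, which went from 54.0% to 92.2%. Most of these genes were higher than EIF1AY in the body on PacBio. Those that were lower were DDX3Y, LOC132342139 and LOC101902149.

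**Figure D3:**
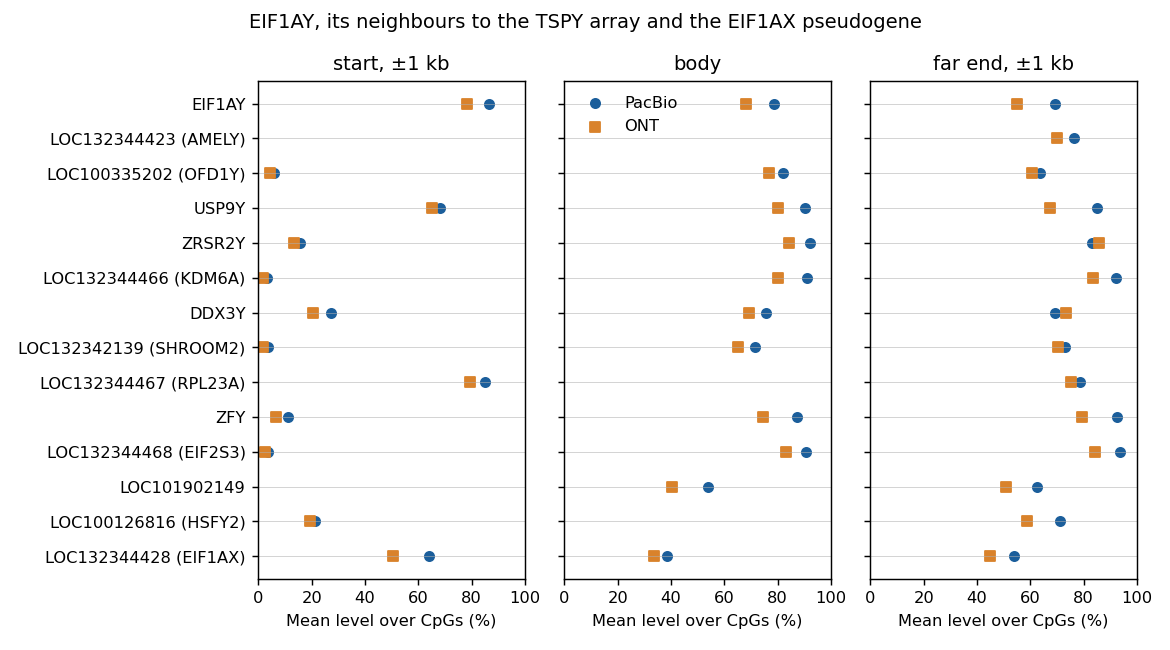
Mean PacBio (circles) and ONT (squares) level in percent within 1 kb of the start, in the body and within 1 kb of the far end, for EIF1AY, the 12 protein-coding genes up to the first TSPY copy and the Y copy annotated as an EIF1AX pseudogene. Values over fewer than 5 CpGs are left out. At the start EIF1AY lies at 86.6% on PacBio, beside LOC132344467 at 85.0%, and most other genes lie below 30%.

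Over the whole MSY the level of start islands fell into separate ranges. Among the 122 genes with an island and a known strand, 8 had at most 13.0% on PacBio and the others at least 62.4%. The 8 were the 7 genes above and LOC132344515 (TXLNG), at 2.99%. EIF1AY ranked second on both platforms, after LOC132344467. The islands of 63 other genes stood at 80% or more on PacBio, and 43 of these genes are copies of the testis gene family TSPY by the names of the study. TSPY copies also make up most of the 122 genes, so this count is not read as a trait of TSPY.

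**Figure D4:**
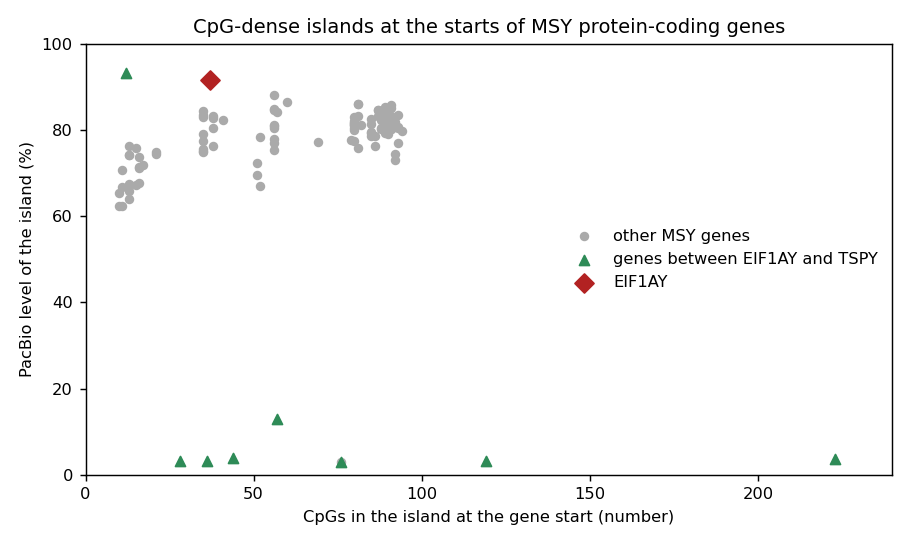
PacBio level in percent of the CpG-dense island at the start of each of 122 MSY protein-coding genes, against the number of CpGs in the island. The diamond is EIF1AY, triangles are the genes between EIF1AY and the first TSPY copy, and grey points are other MSY genes. EIF1AY has 37 CpGs at 91.7%, and the islands at 13.0% or less have 28 to 223 CpGs.

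The Y also carries a copy that the study annotates as an EIF1AX pseudogene, LOC132344428, at chrY:13121234-13155375 on the minus strand. It had no CpG island by the same rule within 1 kb of its start. The 33 CpGs within 1 kb of the start had 64.2% on PacBio and 50.6% on ONT, lower than the start of EIF1AY by description. Its body had 38.6% on PacBio and 33.7% on ONT over 207 CpGs, against 78.5% and 68.3% in EIF1AY. At the far end it had 54.0% and 45.1% over 30 CpGs.

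The genes with the most similar pattern to EIF1AY were looked for by the distance over 5 PacBio and 5 ONT means, of both flanks, both ends and the body, among 71 other MSY genes with at least 5 CpGs in each. Parts were matched in order along the chromosome. For a gene on the minus strand the start of EIF1AY was therefore set beside its far end. The closest were LOC132344530, LOC132344531 and LOC132344533, all named RBMY by the study, at distances of 21.2, 22.3 and 25.2 percentage points. The levels at both ends, on which EIF1AY was selected, enter this distance. LOC132344531 ranked 1 on that same mean of both ends, so part of the likeness follows from the choice. LOC132344530 had 80.3%, 72.3% and 70.3% on PacBio at the end of lower coordinate, in the body and at the other end. The corresponding values of EIF1AY were 86.6%, 78.5% and 69.4%.

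The platforms differed in level over the locus. ONT was lower at 210 of 246 CpGs, and ONT minus PacBio averaged -11.1 percentage points. Across these CpGs Pearson's r was 0.831 and Spearman's rho 0.709, as a description, since neighbouring CpGs share reads. The difference was -8.30 points at the start, -7.42 points in its island, -10.2 points in the body, -14.2 points at the far end and -16.2 points in the flank more than 1 kb before the start. Among the start, the body and the far end, with windows of 1 kb at the ends, the start was highest and the far end lowest on both platforms. With windows of 2 kb the far end stood above the body on PacBio, at 80.8% against 78.5%, and below it on ONT, at 67.7% against 68.3%. The ONT strand rows differed by 2.23 points on average over the locus, lower minus upper row, and by 11.8 points in absolute value. Single CpGs differed more. The CpG at 6878451 in the start island had 97.4% on the lower and 41.9% on the upper row, with 91.9% on PacBio. No CpG of the locus had an ONT row at 0, a value that could stand for a missing call.

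The depth behind the PacBio values was even around the start. It was 44 to 45 reads over the start island, next to a median of 41 in the MSY outside the centromere with a 5th percentile of 24 and a 95th percentile of 57. Along the locus, flanks included, it rose from a median of 45 in the part up to 8 kb inside the start to 60 beyond it. In the body it was 46 before and 57 after the midpoint of the gene, and it was 64 at the far end, above that 95th percentile. The lower levels of the later part of the body and of the far end thus came with a greater depth, whereas the 5 kb after the gene combined a median depth of 64 with a level of 86.8%. The part of depth in these levels was not tested. No CpG of the locus had fewer than 38 reads.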

How the data were processed

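CpG methylation of cattle lung DNA was taken from 1 file per platform. For PacBio, the authors estimated methylation with Primrose, aligned reads with pbmm2 and summarised CpGs with aligned_bam_to_cpg_scores. The deposited file gives a score in percent, the count of reads, and how many of them the model takes as modified or not (estimated counts). The ONT modified bases were called by the authors with Dorado, in a model for 5mC and 5hmC, and reads were aligned with Winnowmap and summarised by modbam2bed with thresholds of 20% and 80%. The deposited ONT file gives a percent per strand and no read count, so no per-site test was possible.

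PacBio positions run backwards and ONT positions are shifted relative to the assembly. Both were converted to ARS-UCD2.0, and every PacBio CpG found both ONT rows. This placement was inferred. Under it the densest CpGs of the locus lie at the gene start, and 5 of the 8 start islands of the neighbours contain the annotated start. The 8 were taken only within 1 kb of a start, so the count of 5 is no independent check of the placement. The PacBio level is the score and the ONT level the mean of the strand rows, at CpGs with at least 10 reads and with equal weights. The lower row belongs to the plus strand if each row sits at its cytosine. Genes are those of the gene table, with strand and names from the annotation of the study where start and end were identical, which gave a strand for 202 of 223 MSY protein-coding genes. Exon positions were not used here.

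Islands were runs of windows of 200 bp with at least 10 CpGs, at least 200 bp long. Genes were named by rule, namely EIF1AY, its neighbours up to TSPY, the EIF1AX pseudogene and the 3 genes closest in profile by Euclidean distance. LOC132344576 and LOC132344611 were named as the genes ranked next to EIF1AY on the level at both ends. LOC132344515 was named after its value was seen, and the division of depth at 8 kb, the division of the body at the gene midpoint and the step in the second island were also described after the values were seen. The gene and the comparisons were chosen with earlier results of these data known. Intervals are Wilson 95% intervals of pooled read estimates. Reads span many CpGs, so that the pooled intervals are too narrow as a measure of independent molecules. Alternatives were coverage minimums of 4 and 20 reads, levels from estimated reads, weights by reads, single strand rows, windows of 500 bp and 2 kb, other island and low-level limits, and mean depth. Python 3.11.15 was used, with matplotlib 3.10.9 for plots, scipy 1.17.1, pandas 2.3.3 and numpy 2.4.6, and the calculations were tested on simulated data.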

Additional observations from a re-analysis of the deposited data

How the results depend on the processing

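Of 69 alternatives, 32 moved a value, and 0 changed the sign of the platform difference or of the difference between the start and the neighbours. EIF1AY was chosen on its level at the ends, where most CpGs belong to the start. The unchanged sign against the neighbours therefore says nothing of stability. The order of far end and body did turn on PacBio, as given below. Of the 37 others, 24 could not change a value and say nothing of stability, since no CpG of the locus had fewer than 38 reads (coverage minimums of 4 and 20 reads, 23) or an ONT row at 0 (1). The remaining 13 left a value within its interval, at the same rounded value or within 1.5 times a count, or, for depth, within 1 SD. Windows of 500 bp and 2 kb gave a start level of 88.2% and 82.6% on PacBio and 80.3% and 71.7% on ONT. At the far end they gave 73.3% and 80.8% on PacBio and 54.5% and 67.7% on ONT, so the far end depended on the window. The start stayed above it, by little on PacBio at 2 kb, and at 2 kb the far end lay above the body on PacBio but not on ONT. The start lay above the median of the neighbours by 73.8 and 59.1 points on PacBio and by 70.7 and 52.5 points on ONT. The lower and upper ONT rows gave 79.4% and 77.2% at the start, 59.5% and 50.8% at the far end, 69.5% and 67.0% in the body, 70.7% and 69.04% in the 5 kb before the gene, and 74.6% on the upper row in the 5 kb after it. Weights by PacBio reads gave ONT levels of 78.5% at the start, 55.05% at the far end, 67.4% in the body, 69.6% before and 74.8% after the gene. The platform difference was -9.98 points on the lower and -12.2 points on the upper row. With at least 12 CpGs per 200 bp only 1 island remained, that of the start. Low CpGs numbered 11 at a limit of 30%, 22 at 50%, and 12 at 20% on ONT. The shares over the MSY at 30% and 50% are not given, so these counts are not read as few or many. The cause was not tested. No paired analysis was possible because each platform has 1 library. The ONT depth is unknown, which leaves ONT values without an interval.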
